A study of Caenorhabditis elegans with 12 samples.

Results

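The genes described here are 10 genes of Caenorhabditis elegans named for the molting cycle. They are the 2 NIMA-related kinase genes nekl-2 and nekl-3 and the 8 molting-defective genes mlt-2, mlt-3, mlt-4, mlt-7, mlt-8, mlt-9, mlt-10 and mlt-11. They were chosen by name among the 46891 gene names of the count table, with earlier results of these data known. All 10 names were in the table. The rows of mlt-11 and mlt-9 held no counts or almost none, and the other 8 genes passed the filter on low counts and were tested. The study measured polyadenylated RNA of whole N2 worms after RNA interference (RNAi), a way to silence one gene through its transcript. How the RNAi was delivered is not stated. The worms compared here had received RNAi of y54g2a.18, the homologue of human BCAP31, a membrane protein of the endoplasmic reticulum, or a control RNAi, with 3 libraries in each group. The series asked how this gene and rpoa-49 influence ageing. All groups share the N2 genotype. The labels name neither the age or stage at harvest nor the construct of the control RNAi. They do not tie the libraries of a group to separate cultures, so p-values measure the spread between these libraries, which may be technical.

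Nematodes replace their cuticle at the end of each larval stage. The epidermis builds a new cuticle beneath the old one, and the old cuticle is detached and shed. The kinases NEKL-2 and NEKL-3 work in this epidermis with ankyrin repeat proteins as partners, MLT-2 and MLT-4 for NEKL-2 and MLT-3 for NEKL-3, and the complexes are needed for endocytic trafficking and for shedding of the old cuticle. MLT-7 is a heme peroxidase of the cuticle, MLT-10 the founding member of a family of secreted proteins with proline-rich repeats, and MLT-11 a protein with Kunitz-type protease inhibitor domains. Transcripts of several of these genes are known to rise and fall once in each larval stage.

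The 3 RNAi libraries held 30103422 to 38313344 counts and the 3 control libraries 34561881 to 39492584 counts. Y54G2A.18 itself was at 190, 128 and 90.2 CPM (the count relative to library size, scaled between libraries by trimmed means) after RNAi and at 391, 358 and 409 CPM in controls. The fitted log2 difference was -1.51, standard error (SE) 0.25 (adjusted p = 0.00732, edgeR's quasi-likelihood test), so the targeted transcript was lower in the libraries labelled as its knockdown. Y54G2A.18 overlaps dib-1 on the opposite strand, and the labels do not say whether the counting used strand. Ribosomal RNA made up 0.0965, 1.34 and 2.06% of the counts of RNAi replicates 1, 2 and 3, and 1.06, 1.69 and 0.219% of those of control replicates 1, 2 and 3. Among marker genes of tissues, the 2 tested epidermal markers dpy-7 and rol-6, both cuticle collagens, fell. The epidermal list of 5 genes summed to 163 to 366 CPM after RNAi and 933 to 1125 CPM in controls, with its markers col-19 and bli-1 listed at 0 in every library. The 3 pharyngeal muscle markers summed to 88.7 to 104.8 CPM after RNAi and 212 to 223 CPM in controls. Most of that sum was the troponin C gene tnc-2, which fell (log2 difference -1.30, adjusted p = 0.00133, edgeR). The groups overlapped for the other markers, myo-2 and myo-1 (log2 differences -0.84 and -0.76, adjusted p = 0.32 and 0.46, edgeR). Of the 3 germline markers, 0 were called in edgeR, DESeq2 or limma-voom, and the unadjusted edgeR p was under 0.05 for 1. Among all tested genes, edgeR called 8.98% in either direction, and 23.3% had an unadjusted p under 0.05. The germline markers summed to 133 to 174 CPM after RNAi and 201 to 240.5 CPM in controls. The 3 intestinal markers summed to 119.5 to 207 CPM after RNAi and 131 to 152 CPM in controls. The 3 body wall muscle markers summed to 221 to 1043 CPM after RNAi and 244 to 559 CPM in controls, with 0 called in edgeR. Of the 3 adult-stage markers, vit-2 was at 553, 1234 and 5519 CPM after RNAi and 2525, 4075 and 1633 CPM in controls. The other adult-stage markers, col-19 and vit-6, were listed at 0 in every library. A 0 is no plain measure of absence for vit-6, which has 2 RefSeq transcripts. Of protein-coding genes with 2 RefSeq transcripts, 39.1% were at 0 in all 6 libraries, against 6.9% of those with 1, as col-19 has. The stage of the worms was not tested. In RNA of whole worms, fewer cells of a type and less RNA per cell cannot be told apart.

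Among the molting genes, mlt-8 fell and nekl-3 rose after y54g2a.18 RNAi. mlt-10 was lower in each RNAi library but missed the threshold. The ankyrin partners of the kinases, nekl-2 and mlt-7 did not pass the test. Of the 8 tested members, 1 was called lower and 1 higher at an adjusted p of 0.05, where 5.01% of all 14290 tested genes were called lower, 3.97% higher and 8.98% in either direction. DESeq2 and limma-voom each called mlt-8 and mlt-10 lower and nekl-3 higher. DESeq2 called 6.62% of all genes lower and 5.78% higher, and limma-voom called 5.13% lower and 3.4% higher. Unadjusted p was under 0.05 for 3 of the 8 members and for 23.3% of all tested genes. With 1 call in each direction in edgeR, the counts do not set the 8 genes apart from other genes. The libraries of the 2 groups did not overlap for mlt-8 and mlt-10, both lower after RNAi, or for nekl-2 and nekl-3, both higher. All RNAi libraries lay below all controls for 14.6% of all tested genes and above them for 15.8%, together 30.4%. The median log2 fold change was 0.31 for the 8 members and 0.02 for all tested genes.

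**Figure D1:**
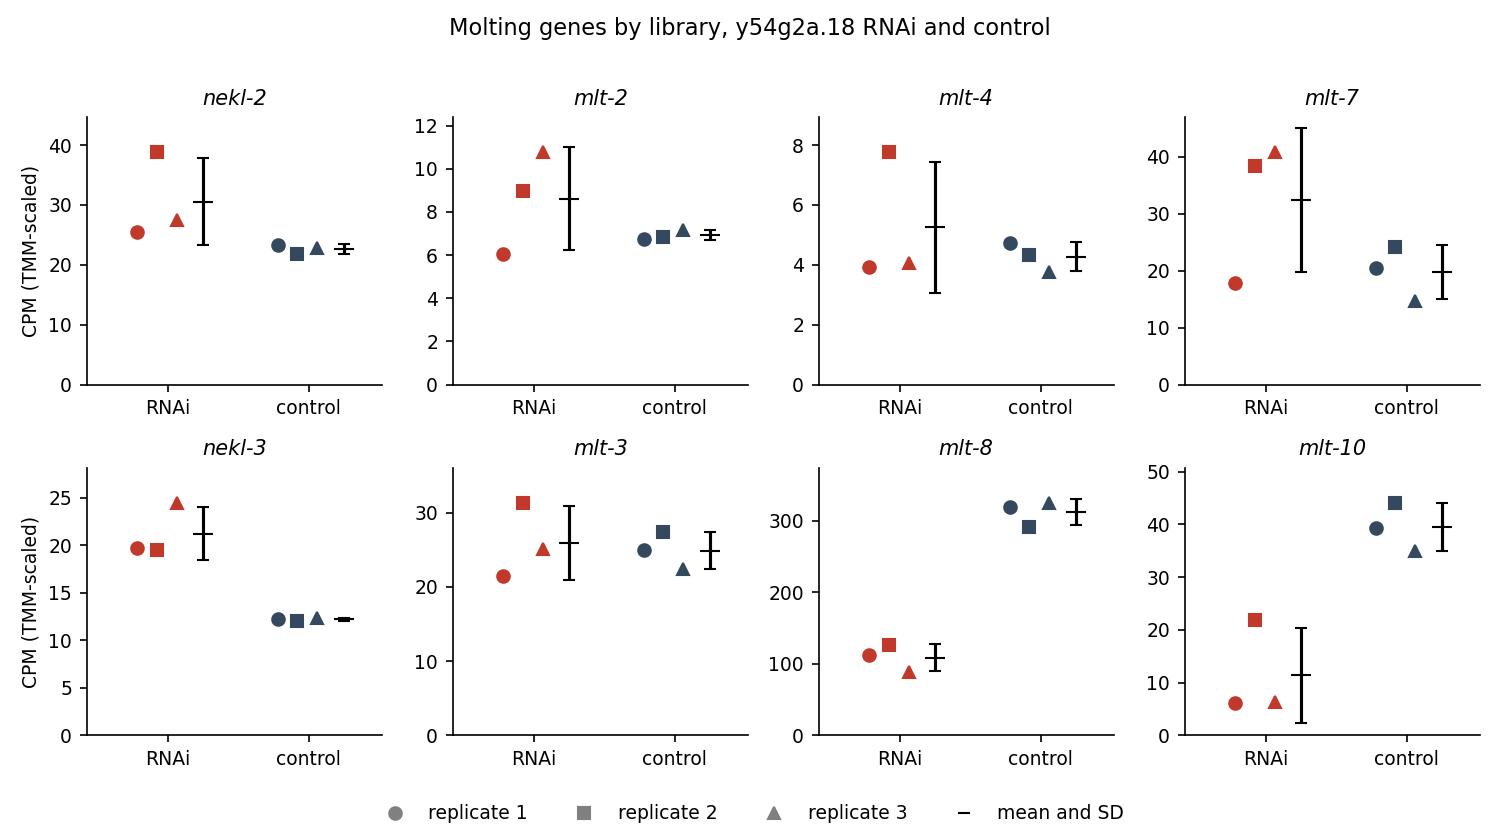
CPM of the 8 tested molting genes in each library (one panel a gene, y axes start at 0), with y54g2a.18 RNAi on the left and control on the right; symbols mark the replicate number, and the bar gives the mean and SD of 3 libraries. The groups are apart for mlt-8, mlt-10, nekl-3 and nekl-2 and overlap for the other genes.

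mlt-8 (W08F4.6, chromosome II) was the most abundant of these genes and had the smallest p of the 8. It stood at 112, 126 and 88.4 CPM in the RNAi libraries, against 319, 291 and 325 CPM in the control libraries. Every RNAi value was below every control value, and the coefficient of variation was 17.3% after RNAi and 5.82% in controls. The means of 109 ± 18.8 CPM after RNAi and 312 ± 18.1 CPM in controls (SD, n = 3 each) differ 2.87-fold, lower after RNAi. The log2 fold change was -1.52 (SE 0.16, 95% interval -1.89 to -1.16, adjusted p = 0.00105, edgeR). By p the gene ranked 118 of 14290 tested genes. mlt-8 passed the threshold under all 16 alternative settings, with an adjusted p of at most 0.00952 when a single library was left out. The epidermal markers dpy-7 and rol-6 moved the same way, at log2 fold changes of -1.88 and -2.12, and their part in the result was not tested.

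mlt-8 alone made up 52.6, 43.0 and 38.9% of the summed CPM of the 10 genes in RNAi replicates 1, 2 and 3, against 70.8, 67.4 and 73.3% in control replicates 1, 2 and 3. The summed CPM of all 10 was 212 to 292 after RNAi and 432 to 451 in controls, so the sum follows mlt-8 and does not describe the other members.

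mlt-10 (C09E8.3, chromosome II) lies close to mlt-8, with 4 protein-coding genes between them in the RefSeq annotation of the assembly WBcel235. It was at 6.12, 21.8 and 6.29 CPM after RNAi and at 39.4, 44.1 and 34.9 CPM in controls. RNAi replicate 2 held more than the other RNAi libraries and still lay below every control library. The means were 11.4 ± 9.03 CPM after RNAi and 39.5 ± 4.59 CPM in controls (SD, n = 3 each), 3.46-fold lower after RNAi. The log2 fold change was -1.79 (SE 0.47, 95% interval -2.87 to -0.71), with an adjusted p of 0.0532 in edgeR. That value sits at the threshold: the gene was called lower by DESeq2 (adjusted p = 0.000411) and by limma-voom (adjusted p = 0.0192). Without RNAi replicate 2 the log2 fold change was -2.67 and the adjusted p 0.00079, and without control replicate 2 the adjusted p was 0.153. Of the 4 genes between mlt-10 and mlt-8, W08F4.5 was the one that could be tested. It was at 4.40, 4.60 and 5.17 CPM after RNAi and 4.72, 4.14 and 4.68 CPM in controls (adjusted p = 0.87, edgeR). mlt-10 shares 109 exonic bases with lips-7, which held 5 counts over the RNAi libraries and 13 over the controls, and 16 with T27A1.3, which held 0.

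The other tested matrix gene, the peroxidase gene mlt-7 (ZK430.8, chromosome II), lay on the other side of 0. It was at 17.8, 38.4 and 40.8 CPM after RNAi, against 20.5, 24.2 and 14.7 CPM in controls. RNAi replicates 2 and 3 exceeded every control library, and RNAi replicate 1 did not. The log2 fold change was 0.71 (SE 0.32, 95% interval -0.04 to 1.45, adjusted p = 0.24, edgeR). Within each group, the order of the mlt-7 values was the order of the ribosomal RNA shares, lowest in RNAi replicate 1 and in control replicate 3. That order is not particular to mlt-7. The second principal component, an axis of variation over all tested genes with 22.2% of the variance between libraries, had it too. When the ribosomal RNA share entered the fit on a log scale, a setting added after the data were seen, the log2 fold change was 0.69 and the adjusted p 0.00691 in edgeR. Without RNAi replicate 1 the log2 fold change of mlt-7 was 1.00, with an adjusted p of 0.021. Calls over all tested genes rose as well, from 1283 in the main fit to 2214 with the covariate and 2097 without RNAi replicate 1. Leaving out any other library gave adjusted p up to 0.527 for mlt-7.

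**Figure D2:**
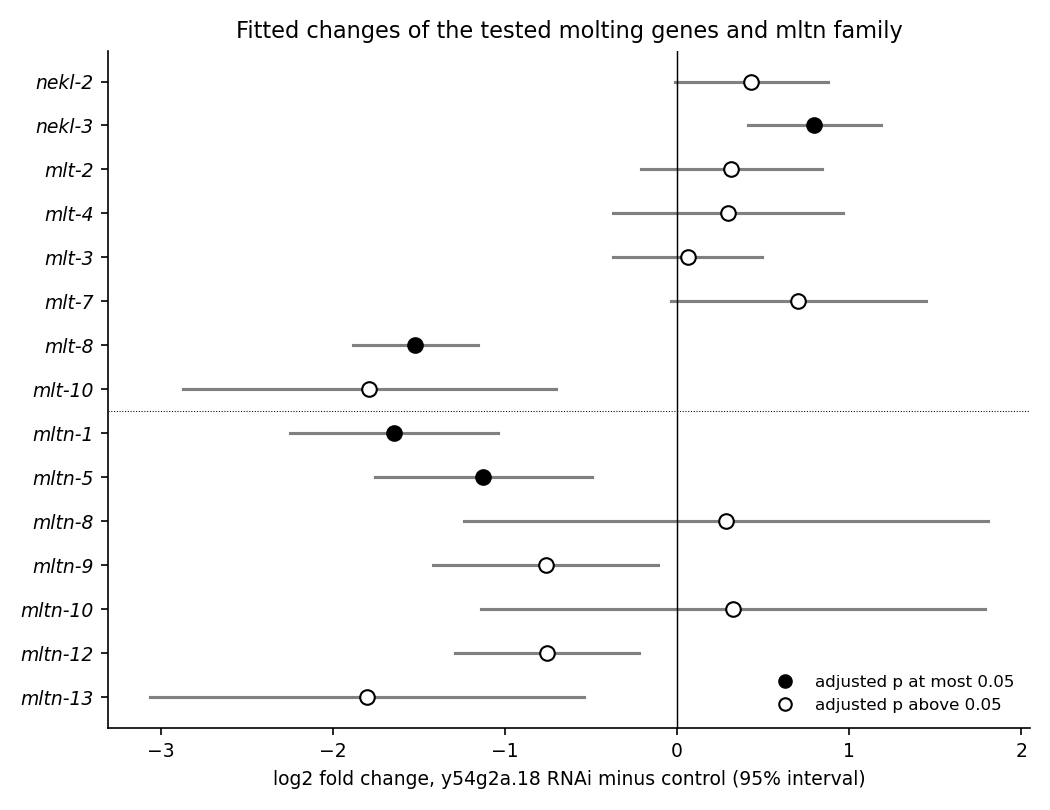
Log2 fold change of y54g2a.18 RNAi minus control with its 95% interval from edgeR (x axis) for the 8 tested molting genes, above the dotted line, and the 7 tested genes of the MLT-10-related family, below it; filled points passed an adjusted p of 0.05. mlt-8 at -1.52 and mlt-10 at -1.79 lie left of 0 with mltn-1 at -1.65, nekl-3 lies right of it at 0.80, and the interval of mlt-10 is the widest of the 8 molting genes.

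nekl-3 (F19H6.1, chromosome X) encodes one of the kinases. It was at 19.7, 19.5 and 24.5 CPM after RNAi and at 12.2, 12.01 and 12.4 CPM in controls. The controls differed by little, and all RNAi libraries lay above them. The means of 21.23 ± 2.81 CPM after RNAi and 12.2 ± 0.177 CPM in controls (SD, n = 3 each) give a ratio of 1.74. The log2 fold change was 0.80 (SE 0.17, 95% interval 0.41 to 1.18, adjusted p = 0.0208, edgeR). DESeq2 gave an adjusted p of 0.00112 and limma-voom 0.0192. The call was lost without control replicate 1, 2 or 3 (adjusted p = 0.133, 0.115 and 0.101), while the log2 fold change over all omissions stayed between 0.68 and 0.85. It was also lost with the replicate number as a block (adjusted p = 0.0761).

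nekl-2 (ZC581.1, chromosome I), the other kinase gene, was at 25.4, 38.8 and 27.4 CPM after RNAi and at 23.3, 21.8 and 22.9 CPM in controls. Every RNAi library was above every control library, by a margin that was small outside RNAi replicate 2. The log2 fold change was 0.43 (SE 0.20, 95% interval -0.01 to 0.88, adjusted p = 0.23, edgeR), and the gene was called under none of the 16 alternatives. The interval includes the change of nekl-3, so the data do not show that the 2 kinase genes responded differently, and that difference was not tested. nekl-2 shares 84 exonic bases with ZC581.9 on the opposite strand, which was listed at 0.

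The ankyrin repeat partners showed no change that passed the test. mlt-2 (C01H6.2, chromosome I), a NEKL-2 partner, was at 6.06, 8.99 and 10.8 CPM after RNAi and 6.75, 6.83 and 7.17 CPM in controls, with RNAi values on both sides of the controls. Its log2 fold change was 0.32 (95% interval -0.21 to 0.84, adjusted p = 0.46, edgeR). mlt-4 (ZC15.7, chromosome V), the other NEKL-2 partner, was at 3.93, 7.77 and 4.05 CPM after RNAi and 4.72, 4.34 and 3.75 CPM in controls. Only RNAi replicate 2 stood above the controls. The log2 fold change of mlt-4 was 0.30 (95% interval -0.37 to 0.97, adjusted p = 0.60, edgeR), and it became -0.10 without that library.

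mlt-3 (Y39C12A.1, chromosome IV), the NEKL-3 partner, was at 21.5, 31.3 and 25.1 CPM after RNAi and 24.96, 27.3 and 22.4 CPM in controls. The groups overlapped fully, with the highest and the lowest value both in RNAi libraries. Its log2 fold change was 0.06 (95% interval -0.37 to 0.49, adjusted p = 0.89, edgeR), and its sign turned without control replicate 3 or RNAi replicate 2. mlt-3 shares 25 exonic bases with F35G2.5 on the opposite strand, a gene that averaged 1.46 CPM after RNAi and 6.41 CPM in controls (log2 fold change -2.12, adjusted p = 0.00335, edgeR). Reads of that stretch cannot be assigned to one gene without the strand setting, and it makes up 1.93% of the exonic length of mlt-3.

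The balance of each kinase gene and its partners was compared within libraries as a ratio of CPM per kilobase of exon, which does not depend on library scaling. The ratio of nekl-3 to mlt-3 was 1.09, 0.744 and 1.164 after RNAi, against 0.584, 0.524 and 0.659 in controls. All RNAi ratios were above all control ratios, with means of 0.999 ± 0.224 after RNAi and 0.589 ± 0.0679 in controls (SD, n = 3 each). The ratio of nekl-2 to mlt-2 averaged 6.76 ± 1.81 after RNAi and 6.01 ± 0.275 in controls, that of nekl-2 to mlt-4 averaged 10.2 ± 1.596 after RNAi and 9.01 ± 1.09 in controls, and that of mlt-4 to mlt-2 averaged 0.686 ± 0.266 after RNAi and 0.675 ± 0.0975 in controls. The groups overlapped for these 3 ratios. The ratios were chosen after values were seen. The two-sided exact permutation p was 0.1 for nekl-3 to mlt-3, the smallest that 3 against 3 libraries allow, and 0.3 to 0.9 for the other ratios. After Benjamini-Hochberg adjustment over the 4 ratios the lowest was 0.4.

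Per kilobase of exon, the order of the levels was not the same in the groups. After RNAi, mlt-8 led with 98.2 ± 17.0 CPM per kilobase, followed by nekl-2 with 25.6 ± 6.07, mlt-3 with 20.02 ± 3.84, nekl-3 with 19.5 ± 2.58, mlt-7 with 12.9 ± 5.03, mlt-10 with 4.88 ± 3.86, mlt-2 with 3.94 ± 1.09 and mlt-4 with 2.61 ± 1.09 (SD, n = 3). In controls, mlt-8 led with 282 ± 16.4 CPM per kilobase, followed by mlt-3 with 19.2 ± 1.92, nekl-2 with 19 ± 0.635, mlt-10 with 16.9 ± 1.96, nekl-3 with 11.2 ± 0.163, mlt-7 with 7.88 ± 1.89, mlt-2 with 3.16 ± 0.103 and mlt-4 with 2.13 ± 0.243. mlt-10 was thus the fourth in controls and the sixth after RNAi. Neighbours whose libraries overlapped in level were nekl-2 and mlt-3, mlt-3 and nekl-3, mlt-7 and mlt-10, mlt-10 and mlt-2, and mlt-2 and mlt-4 after RNAi, and mlt-3 and nekl-2, and nekl-2 and mlt-10, in controls.

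The RNAi libraries varied more than the controls for each of the 8 genes. The median coefficient of variation was 25.7% after RNAi and 7.92% in controls for the molting genes. For all tested genes it was 23.3% after RNAi and 11.1% in controls, and 79.6% of them varied more after RNAi. RNAi replicate 2 was the highest of its group for nekl-2, mlt-3, mlt-4, mlt-8 and mlt-10, and RNAi replicate 3 for nekl-3, mlt-2 and mlt-7. RNAi replicate 1 was the lowest of its group for all of them except mlt-8 and nekl-3.

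mlt-11 (W01F3.3, chromosome V) was listed at 0 in all 6 libraries, and mlt-9 (F09B12.1, chromosome X) held 1, 0 and 0 counts after RNAi and 0, 1 and 2 counts in controls. Neither can be compared. A count of 0 allows up to 0.0748 to 0.0934 CPM in a library (3 counts, counting error only), but these rows are not plain measures of absence. mlt-9 has 2 RefSeq transcripts and mlt-11 has 8, while each of the other members has 1. Over the whole table, 6.9% of protein-coding genes with 1 RefSeq transcript were at 0 in all 6 libraries, 39.1% of those with 2, 58.0% of those with 3 to 5 and 76.3% of those with 6 or more. Of 49 genes with 8 transcripts, 39 were at 0. nekl-3 has 1 transcript in RefSeq and 2 in the Ensembl annotation.

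**Figure D3:**
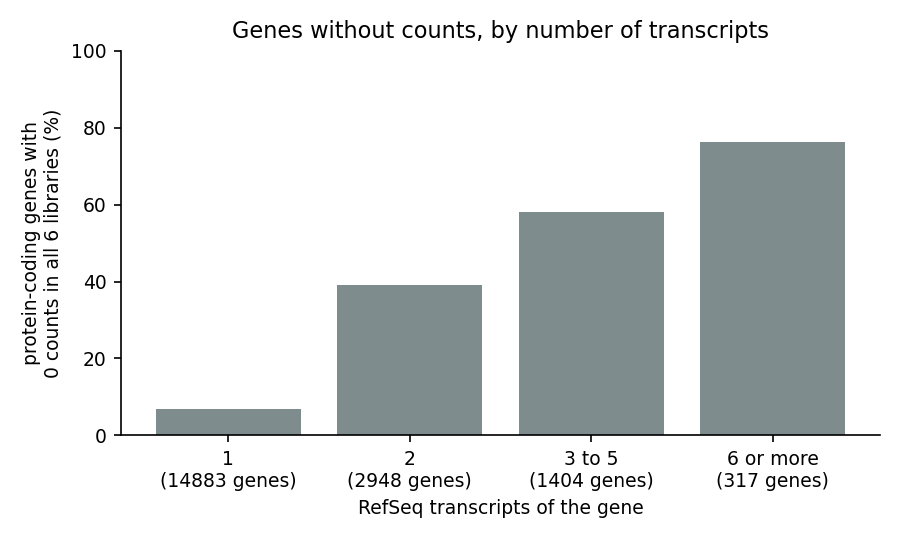
Share of protein-coding genes with 0 counts in all 6 libraries (y axis, %) by the number of RefSeq transcripts of the gene (x axis, with the number of genes in parentheses). The share is 6.9% with 1 transcript, as for 8 of the molting genes, and 76.3% with 6 or more, the class that holds mlt-11.

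The genes related to mlt-10 form the mltn family, whose proteins share the proline-rich repeats. Of its 13 members, 7 could be tested, of which 2 fell and 0 rose in edgeR, where 5.01% of all tested genes were called lower and 3.97% higher. The median log2 fold change of the 7 was -0.76, against 0.02 for all tested genes. mltn-1 fell to 6.06, 11.01 and 5.91 CPM after RNAi, against 24.0, 25.6 and 22.4 CPM in controls (log2 fold change -1.65, SE 0.26, adjusted p = 0.00622, edgeR), and it passed under all 16 alternatives. As for mlt-10, RNAi replicate 2 was its highest RNAi library. mltn-5 fell to 1.55 ± 0.397 CPM after RNAi, against 3.38 ± 0.722 CPM in controls (SD, n = 3 each; adjusted p = 0.0403, edgeR). The call of mltn-5 was lost in 6 of 16 alternatives, all but one of them omissions of a library and the other the replicate block, with adjusted p up to 0.188. mltn-9, mltn-12 and mltn-13 also had each RNAi library below each control library, at log2 fold changes of -0.76, -0.76 and -1.80 and adjusted p of 0.15, 0.0888 and 0.0854. All RNAi libraries lay below all controls for 5 of the 7, and for 14.6% of all tested genes. Unadjusted p was under 0.05 for 5 of the 7, and for 23.3% of all tested genes. DESeq2 called 3 of them lower. The number was 2 in limma-voom and ranged from 1 to 4 across the 16 alternatives.

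**Figure D4:**
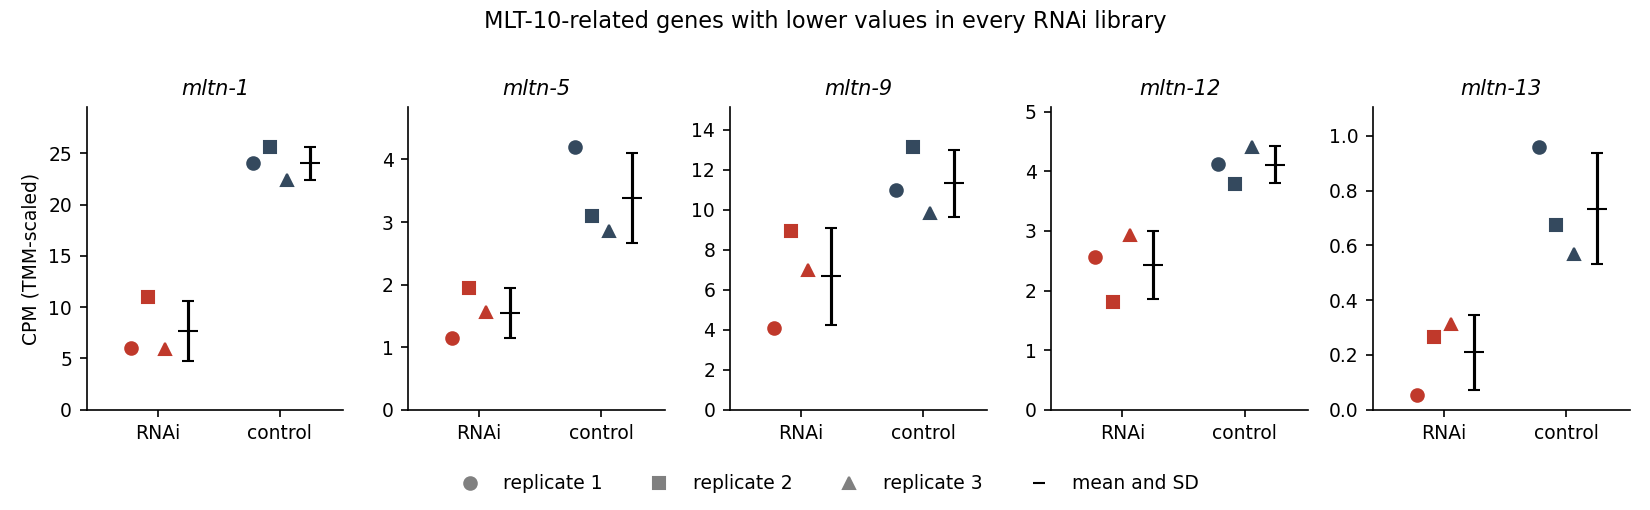
CPM by library of the 5 MLT-10-related genes whose RNAi libraries all lie below the controls (one panel a gene, y axes start at 0), y54g2a.18 RNAi left and control right, with symbols for replicate numbers and bars for the mean and SD. mltn-1 stands at 5.91 to 11.01 CPM after RNAi and 22.4 to 25.6 CPM in controls, and mltn-13 is under 1 CPM throughout.

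Genes related to the members by process, protein class or molting defect were counted by list. Of 15 genes of clathrin, the AP2 adaptor and endosomal trafficking, the process in which the NEKL complexes act, 11 were tested. In edgeR, DESeq2 or limma-voom 0 of these were called, with 0 at an unadjusted edgeR p under 0.05. Among all tested genes, edgeR called 8.98% in either direction, and 23.3% had an unadjusted p under 0.05. The median log2 fold change of the 11 was 0.03, against 0.02 for all tested genes. The endocytic receptor gene lrp-1, whose loss also blocks molting, was at 15.1, 26.2 and 118 CPM after RNAi and 47.2, 83.4 and 23.05 CPM in controls, a wide spread in both groups. Its order within each group was that of the ribosomal RNA shares and of the second principal component. Of the other NIMA-related kinase genes, nekl-4 averaged under 2 CPM in both groups (adjusted p = 0.76, edgeR) and nekl-1, with more than 1 transcript, was listed at 0.

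Of 9 genes of heme peroxidases and dual oxidases, the enzyme class of mlt-7, 8 were tested. The peroxidase gene skpo-2 fell to 2.38, 5.13 and 4.70 CPM after RNAi, against 9.52, 12.3 and 9.33 CPM in controls (log2 fold change -1.35, SE 0.30, adjusted p = 0.025, edgeR). Of the 8, 1 fell and 0 rose, beside 5.01% lower and 3.97% higher among all tested genes. Leaving out control replicate 1, 2 or 3 ended the call of skpo-2 (adjusted p = 0.0708, 0.106 and 0.0675). bli-3, the dual oxidase gene needed to cross-link the cuticle, was at 6.39, 10.7 and 24.8 CPM after RNAi and 13.3, 16.9 and 8.01 CPM in controls (adjusted p = 0.91, edgeR). The median over the list was -0.0023 on the log2 scale.

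Of 12 cuticle protease and protease inhibitor genes, 7 were tested, 2 fell and 0 rose, beside 5.01% lower and 3.97% higher among all tested genes. Their median log2 fold change was -0.42, against 0.02 for all tested genes, and 1 to 3 were called lower over the 16 alternatives. suro-1, which encodes a carboxypeptidase-like protein, fell to 10.9, 14.1 and 14.7 CPM after RNAi, against 31.7, 34.6 and 29.5 CPM in controls (log2 fold change -1.27, SE 0.18, adjusted p = 0.00352, edgeR). The astacin protease gene nas-7 fell to 12.8 ± 0.893 CPM after RNAi, against 21.9 ± 1.77 CPM in controls (SD, n = 3 each; adjusted p = 0.0204, edgeR), and its call ended without control replicate 1, 2 or 3 (adjusted p = 0.138, 0.105 and 0.0667) and under the replicate block (adjusted p = 0.0838). bli-5, a Kunitz-type inhibitor gene as mlt-11 is, was at 3.58, 1.91 and 1.84 CPM after RNAi and 5.604, 4.71 and 4.95 CPM in controls (adjusted p = 0.058, edgeR; 0.0442 in limma-voom and 0.01 in DESeq2).

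Of 13 genes of the apical matrix and of other molting defects, 6 were tested, 3 fell and 0 rose, beside 5.01% lower and 3.97% higher among all tested genes. Their median log2 fold change was -1.07, against 0.02 for all tested genes. qua-1, a hedgehog-related gene needed for molting, fell to 7.89, 14.8 and 16.1 CPM after RNAi, against 37.4, 52.2 and 28.5 CPM in controls (log2 fold change -1.61, SE 0.32, adjusted p = 0.0159, edgeR; 0.0667 without control replicate 2). The zona pellucida domain gene noah-2 fell to 52.0 ± 24.4 CPM after RNAi, against 121 ± 14.2 CPM in controls, and the lipocalin gene lpr-3 fell to 20.9 ± 12.4 CPM after RNAi, against 60.01 ± 8.97 CPM in controls (SD, n = 3 each). Both were near the threshold (adjusted p = 0.0432 and 0.0449, edgeR), and both calls were lost with total counts (0.0512 and 0.0532), without control replicate 1, 2 or 3 and without RNAi replicate 3, with adjusted p reaching 0.144 and 0.146. The number of genes of the list called lower ran from 0 to 4 over the 16 alternatives.

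Of 10 regulators of the molting cycle, 5 were tested. In edgeR 0 of these were called, beside 8.98% of all tested genes in either direction. Unadjusted edgeR p was under 0.05 for 1 of the 5 and for 23.3% of all tested genes. DESeq2 called 1 lower and limma-voom 0. The gene was bed-3, named after its values were seen, at 2.95, 6.92 and 8 CPM after RNAi and 14.1, 19.3 and 8.49 CPM in controls (adjusted p = 0.11 in edgeR and 0.0165 in DESeq2). With the ribosomal RNA covariate, added after the data were seen, 2 of the 5 regulators were called lower. That fit called 2214 of all 14290 tested genes in either direction, against 1283 in the main fit. The order of bed-3 within each group, and that of bli-3 and qua-1, was the order of the ribosomal RNA shares. The second principal component over all tested genes had that order too, as given for mlt-7. In the fit with the ribosomal RNA covariate, the log2 fold change of qua-1 was -1.59 (adjusted p = 0.000282, edgeR). The nuclear receptor gene nhr-23, a main activator of molting genes, has 6 RefSeq transcripts, was under 0.5 CPM in all libraries and was not tested. Over the lists together, 45 of 74 genes were tested, 8 fell and 0 rose (2 to 14 lower over the alternatives), with a median log2 fold change of -0.13 against 0.02 for all tested genes, of which 5.01% were called lower and 3.97% higher. Of the 74, 18 were listed at 0, and 16 of these have more than 1 RefSeq transcript.

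The genes most like the called members were found among 7010 tested genes with at least 10 CPM, as those with the smallest root mean square distance in log2 CPM over the 6 libraries after centring. For mlt-8 they were idpp-16 at a distance of 0.017, phat-6 at 0.073 and T03G6.1 at 0.086. idpp-16 averaged 38.2 CPM after RNAi and 110 CPM in controls, and its log2 fold change of -1.52 was that of mlt-8. mlt-10 ranked 610 among them at a distance of 0.58. For nekl-3 they were adh-1 at 0.045, lro-1 at 0.050 and Y43C5A.3 at 0.069, and nekl-2 ranked 853 at 0.31. These are descriptions over 6 libraries that share the 2 groups.

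Neighbouring genes were examined as well. Of 27 tested protein-coding genes among the 2 nearest on each side of each member, 3 were called lower and 0 higher, beside 5.01% lower and 3.97% higher among all tested genes. They were col-61 beside mlt-2, F35G2.5 beside mlt-3 and klf-2 near mlt-11, at log2 fold changes of -1.43, -2.12 and -1.38. None of these adjoins mlt-8 or nekl-3. Of the genes that do adjoin mlt-8, W08F4.7 averaged 0.594 CPM after RNAi and 1.80 CPM in controls. Its log2 fold change was -1.59 (adjusted p = 0.092, edgeR), and that of W08F4.5 was 0.06 (adjusted p = 0.87, edgeR).

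**Figure D5:**
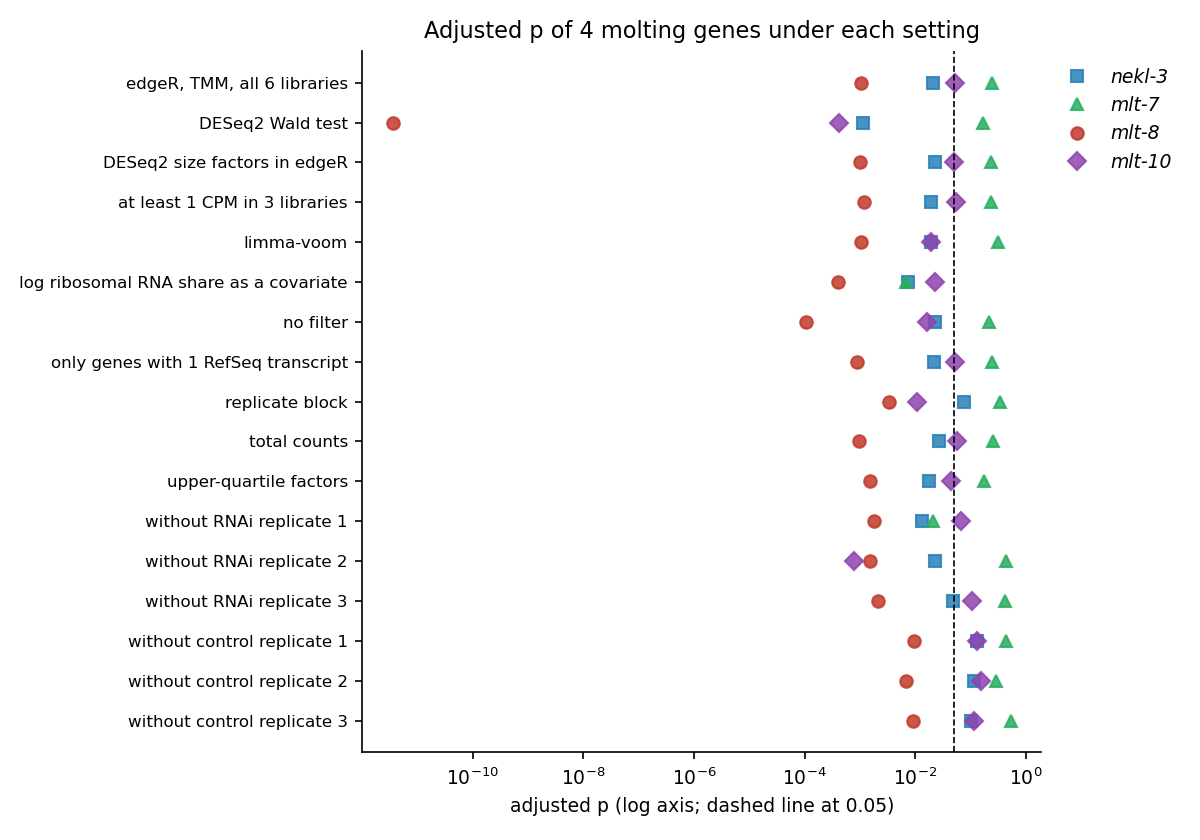
Adjusted p (x axis, log scale, dashed line at 0.05) of nekl-3, mlt-7, mlt-8 and mlt-10 under the main setting and 16 alternative settings (rows). mlt-8 stays left of the line throughout, nekl-3 lies right of it without control replicate 1, 2 or 3 and under the replicate block, mlt-10 lies on both sides, and mlt-7 crosses it without RNAi replicate 1 and with the ribosomal RNA covariate.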

How the data were processed

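Values were raw counts for each gene, deposited as a table for each experiment. The submitters' processing notes list, with no roles, HISAT2 2.2.1, DESeq2 1.16.1, FastQC 0.11.9 and featureCounts 1.28.1. The build, annotation, strand setting and treatment of shared reads were not given in the sources used here. No coordinates are printed for that reason. Of deposited counts from 1 to 20, 71.5% were even, so counts may not be single independent reads, and floors cover counting error only. The y54g2a.18 table had 46903 rows, of which 12 without a gene name were left out (at most 0.0247% of counts). The rpoa-49 table held 418 counts and 0 of the 10 names and was not tested.

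Counts were fitted in edgeR 4.0.16 (R 4.3.3; filterByExpr with minimum count 10 and total 15, TMM scaling, quasi-likelihood test, group as the only term) over the 6 libraries, and p-values were adjusted by Benjamini-Hochberg over every gene tested. Standard errors were taken from each log2 fold change and its F statistic, and intervals from the same error. The alternatives were DESeq2 1.42.0, limma-voom 3.58.1, other scalings and filters, the replicate block and leaving out each library. Only genes with 1 RefSeq transcript and the ribosomal RNA covariate were added after the data were seen. Exon lengths and overlaps are from Ensembl (WBcel235) and transcript numbers from RefSeq. On simulated counts for 14290 genes, 2, 36, 92 and 100% of genes changed 1.5-, 2-, 4- and 8-fold were recovered, none in the wrong direction, and 10 of 125 calls were false. The simulation changed 50 genes at each fold and gave both groups the same spread. In the data, 79.6% of tested genes varied more after RNAi, so these shares need not hold for them. Libraries of a group were no duplicates (chi-square per degree of freedom 24.1 or more).

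Members and lists were chosen with earlier results of these data known. Named genes were the members, the target, the 3 called genes with the smallest p of each list, and the 3 genes most like each called member. The other genes and the ratios were chosen after values were seen.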

Additional observations from a re-analysis of the deposited data

How the results depend on the processing

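The number of all genes called, 1283, ran from 646 to 2097 when one library was left out (646, 664 and 667 without control replicate 1, 2 or 3, and 2097 without RNAi replicate 1), and it was 2214 with the ribosomal RNA covariate. Of the molting genes, 2 were called lower (mlt-8 and mlt-10) in DESeq2, in limma-voom, without a filter, with upper-quartile factors, with the ribosomal RNA covariate and with the replicate block, and 1 to 2 when one library was left out. The number called higher was 0 with the replicate block, 2 with the ribosomal RNA covariate (nekl-3 and mlt-7), and 0 to 2 when one library was left out. Over single omissions the log2 fold change ran from -0.097 to 0.18 for mlt-3 (-0.012 without control replicate 3) and from -0.099 to 0.47 for mlt-4. mlt-2, mlt-8 and nekl-2 kept their direction and their side of the threshold in all 16 alternatives, and so did the target. The causes were not tested. Deviations from the group means correlated at 0.0074, 0.045 and -0.37 between libraries with the same replicate number. Between libraries with unlike numbers the correlations ran from -0.42 to 0.40. Deviations within a group of 3 sum to 0, so these values cannot decide whether samples were paired. The replicate block gave 955 calls. Depth limits mlt-4 and mlt-2 most, with 566 and 906 counts over the RNAi libraries and 481 and 773 over the controls. At 3 libraries a group, simulated 2-fold changes were recovered for 36% of genes, with the same spread in both groups, unlike the data.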
